A study of Mus musculus with 2 samples.

Results

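The aggrecan, link protein and hyaluronan system was examined in cells sorted from mouse embryos. Its 10 genes were chosen by symbol, as the hyalectans Acan, Vcan, Ncan and Bcan, the link proteins Hapln1, Hapln3 and Hapln4, the hyaluronan synthases Has2 and Has3, and the hyaluronan receptor Cd44. All probe sets annotated with exactly 1 of these symbols were used, which gave 27 of the 34945 probe sets with 1 symbol and 10 of 18193 genes. The mice had a C57Bl/6 background and carried the Col2a1-Venus transgene, with which a modified green fluorescent protein marks chondrocytes, the cells that make cartilage. Fluorescence-activated sorting separated Venus-positive from Venus-negative cells, both of transgenic origin, and RNA of each fraction was hybridised once to a one-colour Affymetrix array of mouse genes. Col2a1 encodes the main cartilage collagen and stands in the name of the reporter line. The sources used here give neither the stage and number of embryos nor the gates of the sort. With 1 array per fraction there is no replicate error and no test across samples was possible, so every difference describes these 2 arrays.

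Cartilage owes its stiffness under load to aggrecan, a core protein that carries many chondroitin sulfate chains and holds water in the matrix. Aggrecan does not stand alone. Its N-terminal domain binds hyaluronan, a long unsulfated sugar chain, and a link protein binds both and locks them together. The other hyalectans share this plan: versican is widespread in embryonic mesenchyme, and neurocan and brevican belong mainly to the nervous system. Hyaluronan is spun out at the plasma membrane by the synthases, and CD44 is its best known receptor at the cell surface, on chondrocytes as well as on leukocytes and other cells.

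Signals are linear MAS5 intensities. A floor of 22.5, the median signal over both arrays without controls, replaced anything below it, and each log2 ratio has the Venus-positive signal on top. A probe set was measured if either signal reached this floor, and a fold whose dimmer side was under the floor is written "at least". The Venus-positive array was dimmer, with a median log2 ratio of -0.33 over 11789 measured genes, and a relative log2 ratio has this median subtracted. The 18 probe sets for hybridisation controls, which are added to every array, had a median log2 ratio of -0.27. Probe sets of the same gene had a pooled standard deviation of 0.34 in log2 ratio over 5445 genes. This is the spread between measured probe sets, those with a floored signal included, and it holds no error between samples. All 10 chondrocyte markers examined were higher in the Venus-positive fraction by 2-fold or more, with a median log2 ratio of 4.23. They include Col2a1, the gene in the name of the reporter, and were listed with earlier results of these data known. They are therefore no independent check of the label. In bulk samples, fewer cells of a type and less RNA per cell cannot be told apart.

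The genes of this system did not differ together between the fractions. Of the 10 genes 8 had a measured probe set. In Venus-positive cells Acan and Hapln1 were higher by 2-fold or more, Cd44 was lower by 2-fold or more, and Vcan, Has2, Ncan, Bcan and Hapln3 were neither. Of all measured genes, 2.79% were that much higher and 11.6% that much lower. On the relative scale the same 3 members passed in the same directions, against 5.06% and 6.45% of all genes. By probe set, 16 of 27 were measured, 5 passed 2-fold as higher and 2 as lower, against 2.44% and 10.2% of the 21102 measured probe sets. The median log2 ratio of the 8 genes was 0.10, against -0.33 for all measured genes. These 8 include genes that reached the floor in 1 fraction only, so neither the counts nor the median speak for all 10.

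**Figure D1:**
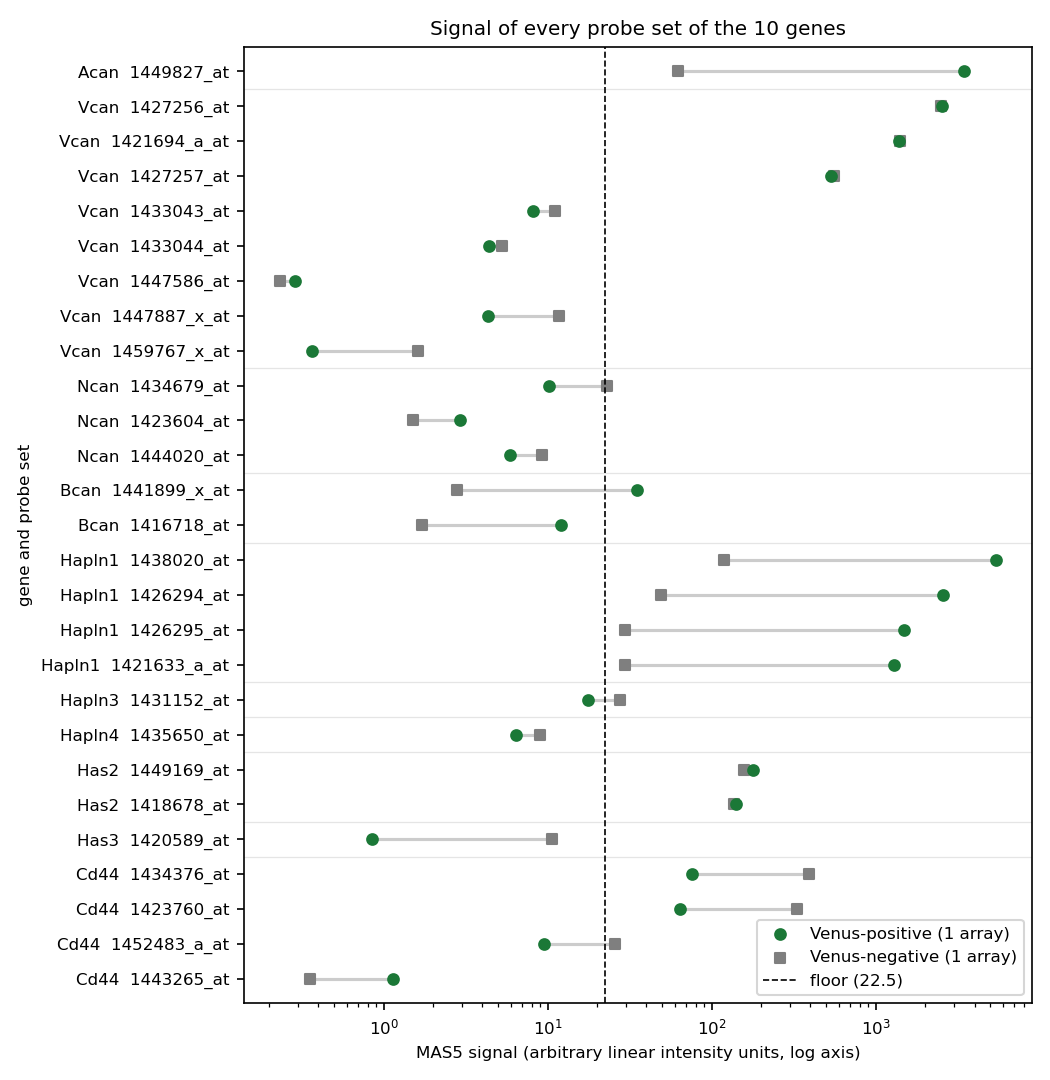
MAS5 signal (log axis) of each of the 27 probe sets of the 10 genes, with a green circle for the Venus-positive array, a grey square for the Venus-negative array and a dashed line at the floor of 22.5. The Acan and Hapln1 pairs lie far apart with the Venus-positive signal on the right, the bright Vcan and the Has2 pairs nearly coincide, and 11 probe sets lie under the floor on both arrays.

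Acan, which encodes the aggrecan core protein, had a signal of 3461 in Venus-positive cells, against 62.6 in Venus-negative cells, 55.3-fold higher. Acan had 1 probe set on the array, 1449827_at, so no second set of probes checks this value. Its log2 ratio of 5.79 was the highest of the 10 genes and rank 5 among all 11789 measured genes. Ranks use ratios as bounded by the floor, so a gene under it in 1 fraction can rank as less extreme than it is. The Acan signal in Venus-negative cells was low but above the floor.

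Hapln1, the link protein of cartilage that fastens aggrecan to hyaluronan, had 4 probe sets, all above the floor on both arrays. Probe set 1438020_at was at 5422 in Venus-positive cells, against 119 in Venus-negative cells, 45.5-fold higher. Probe set 1426294_at was at 2569 in Venus-positive cells, against 49.3 in Venus-negative cells. The signals of 1426295_at were 1488 in Venus-positive cells, against 29.8 in Venus-negative cells. Probe set 1421633_a_at was at 1301 in Venus-positive cells, against 29.5 in Venus-negative cells. The 4 probe sets thus gave folds between 44.1 and 52.2, with a standard deviation of 0.11 on the log2 scale, and Hapln1 had rank 9 among all measured genes. Acan and Hapln1 differed in log2 ratio by 0.28, less than the pooled spread between probe sets of 1 gene. Both ratios were larger than that of Col2a1, which was at 8443 in Venus-positive cells, against 606 in Venus-negative cells with a log2 ratio of 3.80. The differences from it were 1.99 for Acan and 1.71 for Hapln1. Col2a1 had 1 measured probe set, as did Acan, so no second set of probes checks the Col2a1 ratio in these differences. The measured genes with the log2 ratio nearest to that of Acan, over the 2 samples, were Snorc (5.68), Susd5 (5.63) and Cytl1 (5.51), and those nearest to Hapln1 were Cytl1, Col11a2 (5.48) and Susd5.

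Acan and Hapln1 were high together, Vcan differed by less than 2-fold and Cd44 went the other way, so the sequences around their starts are shown side by side. They come from RefSeq, build GRCm38.p6, and run 5′ to 3′ on the strand of the gene, over 250 bases before and 50 after the annotated start. Capitals mark the letters ACAAT, a core of sites bound by SOX proteins, and GGGCGG, the GC box, each searched on both strands. The table held entries for 7 of the 10 genes. Neither motif overlaps the other in the 4 shown.
Acan, chr7:79052976-79053275, plus strand: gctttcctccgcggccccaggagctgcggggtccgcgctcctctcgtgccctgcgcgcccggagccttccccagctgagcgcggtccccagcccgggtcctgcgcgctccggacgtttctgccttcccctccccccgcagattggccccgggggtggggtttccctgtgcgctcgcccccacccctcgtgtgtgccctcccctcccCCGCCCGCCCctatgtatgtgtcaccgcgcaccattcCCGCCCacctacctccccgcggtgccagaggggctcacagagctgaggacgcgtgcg
Hapln1, chr13:89540386-89540685, plus strand: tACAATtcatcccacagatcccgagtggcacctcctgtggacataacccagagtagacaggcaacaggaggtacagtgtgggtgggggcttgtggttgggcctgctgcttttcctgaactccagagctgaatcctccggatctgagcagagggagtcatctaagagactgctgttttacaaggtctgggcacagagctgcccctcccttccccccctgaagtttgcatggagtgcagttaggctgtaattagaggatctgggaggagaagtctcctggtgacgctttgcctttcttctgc
Vcan, chr13:89742463-89742762, minus strand: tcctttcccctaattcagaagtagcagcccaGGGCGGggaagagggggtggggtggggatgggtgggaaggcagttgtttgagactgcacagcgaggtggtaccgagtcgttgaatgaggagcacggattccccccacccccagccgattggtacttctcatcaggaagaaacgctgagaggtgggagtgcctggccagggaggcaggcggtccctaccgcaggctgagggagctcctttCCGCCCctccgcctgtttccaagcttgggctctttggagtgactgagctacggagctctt
Cd44, chr2:102901616-102901915, minus strand: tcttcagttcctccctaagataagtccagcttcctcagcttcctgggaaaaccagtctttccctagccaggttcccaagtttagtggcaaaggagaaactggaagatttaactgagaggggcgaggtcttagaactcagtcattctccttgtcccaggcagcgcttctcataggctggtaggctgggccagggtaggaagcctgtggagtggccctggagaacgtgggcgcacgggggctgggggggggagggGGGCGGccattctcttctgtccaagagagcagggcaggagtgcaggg

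The starts of the pair that was high in Venus-positive cells did not look alike. The Acan sequence had a GC content of 74.0% and 31 CpG dinucleotides, more CpGs than 89.4% of the 32851 promoters in the table. Hapln1 had 54.3% and 3 CpGs, more CpGs than 23.3% of them. The GC box occurred 3 times at Acan, of which a pair overlaps, 2 times at Vcan, once at Cd44 and not at Hapln1, and 35.7% of all promoters of this length hold it. ACAAT or its complement was found once at Hapln1, at the far end of the window, and not in the windows of Acan, Vcan or Cd44. Of the 7 genes with an entry 2 held it. The other was Hapln3, whose signal was close to the floor and not higher in Venus-positive cells. This core occurs in 31.0% of all promoters. A match is a description of the letters only, and a missing one says nothing of sites elsewhere.

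Vcan encodes versican, the large hyalectan of embryonic connective tissue and of the mesenchyme from which cartilage condenses. Its signal was high in both fractions. Probe set 1427256_at was at 2535 in Venus-positive cells, with 2496 in Venus-negative cells. Probe set 1421694_a_at was at 1394 in Venus-positive cells, against 1410 in Venus-negative cells, and 1427257_at was at 533 in Venus-positive cells, against 557 in Venus-negative cells. The log2 ratios of these 3 ran from -0.06 to 0.02, with a standard deviation of 0.04, against a median of 0.21 over genes with several measured probe sets. On the relative scale the ratio of the brightest was 0.35, so whether Vcan is level or slightly higher depends on the scale chosen. The other 5 probe sets annotated to Vcan were under the floor on both arrays, from 0.289 to 8.12 in Venus-positive and from 0.232 to 11.7 in Venus-negative cells. The annotation does not say which versican isoforms each probe set reads. The genes nearest in log2 ratio, Dap3, Epdr1 and Zfp131, all lay at 0.02.

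Neurocan and brevican, hyalectans of the brain, were close to the floor. The brightest Ncan probe set, 1434679_at, was at 10.1 in Venus-positive cells, under the floor, and at 23.1 in Venus-negative cells, just above it. The other 2 Ncan probe sets were under the floor on both arrays. Bcan probe set 1441899_x_at was at 35.3 in Venus-positive cells and at 2.79, under the floor, in Venus-negative cells, at least 1.57-fold higher. This probe set is of a kind that can match several transcripts, and the second one, 1416718_at, was at 12.1 in Venus-positive cells, with 1.70 in Venus-negative cells, both under the floor. Neuronal markers were lower in Venus-positive cells. Their 6 measured genes summed to 183 in Venus-positive cells, against 835 in Venus-negative cells. Of these, 5 were lower by 2-fold or more (4 on the relative scale), beside 11.6% of all measured genes (6.45% on the relative scale). Snap25 was under the floor on both arrays. Of the glial and neural progenitor markers 4 were measured, summing to 133 in Venus-positive cells, against 286 in Venus-negative cells. Of these, 2 were lower by 2-fold or more. On the relative scale 1 was that much lower and 1, Sox10, that much higher. Sox10 was at 41.0 in Venus-positive cells and at 16.7, under the floor, in Venus-negative cells. No marker was listed at 0, and the part of these cells in the Ncan and Bcan values was not tested.

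Among the other link proteins, Hapln3, which is expressed more widely, was at 17.6 in Venus-positive cells, under the floor, and at 27.5 in Venus-negative cells, at least 1.22-fold lower. Hapln4, a brain link protein, was at 6.42 in Venus-positive cells, with 8.95 in Venus-negative cells, under the floor on both arrays. Hapln2, the fourth link protein gene and not one of the 10, was under the floor on both arrays as well, at no more than 10.02 in Venus-positive cells, against 6.99 in Venus-negative cells. Hapln1 was thus the one link protein gene with probe sets above the floor on both arrays. Signals depend on the probes as well as on the transcript, so these levels do not rank the genes.

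The genes for hyalectans and link proteins lie next to each other in the mouse genome. In the RefSeq annotation each of the 4 hyalectan genes has a link protein gene as its neighbour, with 0 protein-coding genes between them: Acan with Hapln3 on chromosome 7, Vcan with Hapln1 on chromosome 13, Bcan with Hapln2 on chromosome 3 and Ncan with Hapln4 on chromosome 8. The neighbours did not move together. Acan had a log2 ratio of 5.79 and its neighbour Hapln3 one of -0.29 or less, a gap of at least 6.08. Hapln1 had a log2 ratio of 5.51 and its neighbour Vcan one of 0.02, a gap of 5.49. The 2 genes that were highest in Venus-positive cells therefore came from different pairs on different chromosomes. In the remaining pairs, Hapln2 and Hapln4 were not measured.

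**Figure D2:**
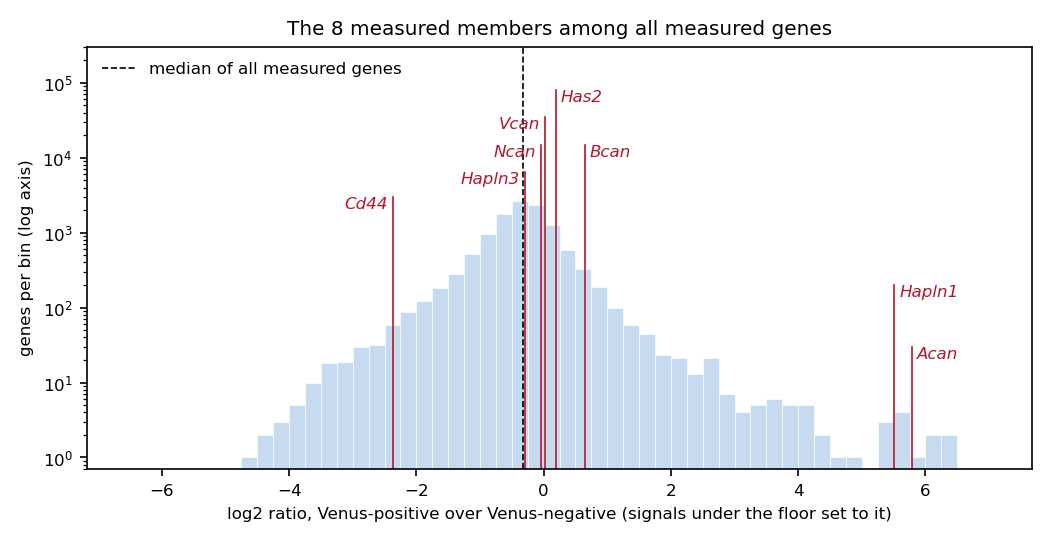
Number of measured genes (log axis) by log2 ratio (Venus-positive on top) in bins of equal width, with red lines at the 8 measured members and a dashed line at the median of all measured genes, -0.33. Acan (5.79) and Hapln1 (5.51) lie at the far right end and Cd44 (-2.37) in the left tail. The other 5 lie nearer the median, the furthest being Bcan at 0.65, a bound set by the floor.

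The hyaluronan synthases did not follow Acan. Has2, the synthase that embryos depend on, had 2 probe sets. Probe set 1449169_at was at 178 in Venus-positive cells, against 156 in Venus-negative cells, and 1418678_at was at 140.3 in Venus-positive cells, with 137 in Venus-negative cells. Their log2 ratios were 0.19 and 0.03, or 0.52 and 0.37 on the relative scale. The log2 ratio of Has2 exceeded that of Vcan by 0.16, within the spread between probe sets. Has3 was under the floor on both arrays, at 0.843 in Venus-positive cells, against 10.6 in Venus-negative cells. Has1, the remaining synthase and not one of the 10, was at 3.45 in Venus-positive cells, against 2.00 in Venus-negative cells. Has2 was therefore the single synthase gene with a measured signal, and that signal did not differ by 2-fold between the fractions on either scale.

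Cd44, the hyaluronan receptor, went in the opposite direction from Acan. Probe set 1434376_at was at 75.5 in Venus-positive cells, against 389 in Venus-negative cells, 5.16-fold lower. Probe set 1423760_at was at 63.6 in Venus-positive cells, against 329 in Venus-negative cells, 5.18-fold lower. On the relative scale the first of these was 4.10-fold lower. Another probe set, 1452483_a_at, was at 9.43 in Venus-positive cells, under the floor, and at 25.6 in Venus-negative cells, at least 1.14-fold lower, and the last, 1443265_at, was under the floor on both arrays. Cd44 had rank 144 from the lowest of all measured genes, a rank in which ratios shortened by the floor count as less extreme. The genes nearest to it in log2 ratio were Postn, the periostin gene of fibroblasts and perichondrium, at 677 in Venus-positive cells, with 3492 in Venus-negative cells, then Ptprc and Hoxc5. Both of these were under the floor in Venus-positive cells, so their ratios are bounds set by the floor and their nearness to Cd44 cannot be read.

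Markers of several other cell types differed in the same direction as Cd44. Of all measured genes, 11.6% were lower by 2-fold or more (6.45% on the relative scale). All 8 leukocyte markers were lower by that much (7 on the relative scale). Their signals summed to 242 in Venus-positive cells, against 1911 in Venus-negative cells, and 4 of them were under the floor in Venus-positive cells. Csf1r, the macrophage growth factor receptor, was at 48.0 in Venus-positive cells, against 758 in Venus-negative cells, and Ptprc, the pan-leukocyte surface gene, was at 10.2 in Venus-positive cells, against 116 in Venus-negative cells. The smallest difference among the Csf1r probe sets was a log2 ratio of -1.67. All 6 epithelial markers were lower by 2-fold or more as well (5 on the relative scale), summing to 217 in Venus-positive cells, with 1102 in Venus-negative cells. Of 8 fibroblast markers 6 were lower by that much (5 on the relative scale), and the 8 summed to 10408 in Venus-positive cells, against 22358 in Venus-negative cells. Among measured markers, 6 of 6 for skeletal muscle, 5 of 5 for erythroid cells, 6 of 6 for endothelium and 3 of 5 for smooth muscle were lower by 2-fold or more and 0 higher. No marker was listed at 0 in either fraction. The part of these cells in the Cd44 difference was not tested.

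Lists of other genes that work on the same molecules were counted in the same way. Of all measured genes, 2.79% were higher by 2-fold or more (5.06% on the relative scale) and 11.6% lower (6.45% on the relative scale). All 7 genes for the supply of sugar nucleotides were measured, 2 of them higher by 2-fold or more (3 on the relative scale), 0 lower and 5 neither, with a median log2 ratio of 0.55 against -0.33 for all measured genes. Gfpt2, which feeds the hexosamine pathway to UDP-N-acetylglucosamine, was at 349.6 in Venus-positive cells, against 77.5 in Venus-negative cells, 4.51-fold higher. Ugdh, which makes UDP-glucuronic acid for hyaluronan and for chondroitin sulfate alike, was at 2666 in Venus-positive cells, with 905 in Venus-negative cells, 2.95-fold higher. Of 26 genes listed for chondroitin sulfate synthesis 22 were measured, 7 were higher by 2-fold or more (11 on the relative scale) and 0 lower, with a median log2 ratio of 0.71. The largest differences were those of Papss2, the sulfate donor synthase (11.9-fold), Chst11, a chondroitin 4-O-sulfotransferase (7.79-fold), Slc26a2, a sulfate transporter (6.06-fold), and Slc35d1, which carries nucleotide sugars into the endoplasmic reticulum (4.73-fold). Slc35d1 was at 630.3 in Venus-positive cells, against 133 in Venus-negative cells, with a lower log2 ratio of 1.39 on its second probe set. Other probe sets gave log2 ratios down to 2.20 for Papss2, 2.10 for Chst11 and 1.10 for Slc26a2, whose highest was 2.85. B3galt6 and Slc35b2, also counted as higher, rest on the brightest probe set, since others went down to -0.03 and 0.18. The 3 Sox factors known to act on Acan and Hapln1 were higher as well, Sox5 by 5.77-fold, Sox9 by 4.73-fold and Sox6 by 4.42-fold, although the log2 ratios of the 6 Sox5 probe sets ran from 0.12 to 2.79.

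Genes that break these molecules down were counted next, beside the 2.79% of all measured genes that were 2-fold higher and the 11.6% that were lower. Of 9 genes for hyaluronan breakdown 5 were measured, and 0 differed by 2-fold. Their log2 ratios were above 0 for 2 and below 0 for 3. The median was -0.12 against -0.33 for all measured genes, or 0.21 on the relative scale. The 5 genes include the hyaluronidase Hyal2, at 94.7 in Venus-positive cells, against 129.6 in Venus-negative cells. Cemip2, a cell surface protein linked to hyaluronan degradation, was at 361 in Venus-positive cells, with 393 in Venus-negative cells. These examples were chosen after their values were seen, and both are among the 3 below 0. Of 12 genes for proteases that cut aggrecan or versican, with the inhibitor Timp3, 9 were measured, 3 were lower by 2-fold or more and 0 higher, and the median was -0.94. Adamts5, the main aggrecanase of mouse cartilage, was at 56.8 in Venus-positive cells, against 323 in Venus-negative cells, 5.68-fold lower. Adamts20 was 3.39-fold lower, at 64.9 in Venus-positive cells, against 220 in Venus-negative cells, and Adamts9, a versican-cleaving relative, 2.65-fold lower, at 144 in Venus-positive cells, with 382 in Venus-negative cells. Other probe sets gave log2 ratios up to -1.68 for Adamts5 and -0.35 for Adamts9. Mmp3, Mmp8 and Mmp13 were under the floor on both arrays.

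Of 21 other genes for proteins that bind hyaluronan 10 were measured, 1 was higher by 2-fold or more and 5 lower (3 on the relative scale), and the median log2 ratio was -0.80. That median depends on the processing, at -0.42 after quantile normalization and -0.19 with no floor. The higher one was Susd5, a protein with a link module of the kind found in aggrecan and link proteins, at 2115 in Venus-positive cells, against 42.8 in Venus-negative cells, 49.4-fold higher. The 2 probe sets of Susd5 gave log2 ratios of 5.59 and 5.63. Lyve1, the hyaluronan receptor of lymphatic vessels and some macrophages, was at 3.78 in Venus-positive cells, under the floor, and 106 in Venus-negative cells, at least 4.73-fold lower. Stab1, a scavenger receptor of macrophages and sinusoidal endothelium, was at least 4.09-fold lower, and Itih5, an inter-alpha-trypsin inhibitor heavy chain, 2.82-fold lower. The other 2, named because of their values, were Tnfaip6, which moves such heavy chains onto hyaluronan, at 363 in Venus-positive cells, against 849 in Venus-negative cells, and Tlr2, at 50.4 in Venus-positive cells, with 116 in Venus-negative cells. All 8 cytoskeletal partners and sheddases of CD44 were measured, 2 of them lower by 2-fold or more and 0 higher, with a median of -0.34, next to the -0.33 of all measured genes. The shares of all measured genes beside these lists were again 11.6% lower (6.45% on the relative scale) and 2.79% higher (5.06% on the relative scale). Ank3, which encodes ankyrin G, was 7.84-fold lower and Adam10, a protease that sheds CD44, 2.63-fold lower. Other probe sets gave log2 ratios up to -1.38 for Ank3 and -1.12 for Adam10. Of 6 partners of the hyalectan C-terminal domain 4 were measured, 1 higher and 1 lower by 2-fold or more (2 higher and 0 lower on the relative scale). Tenascin C (Tnc) was at 1639 in Venus-positive cells, against 569 in Venus-negative cells, 2.88-fold higher, and fibulin 1 (Fbln1) was at 260.1 in Venus-positive cells, with 594 in Venus-negative cells, 2.28-fold lower. Both differences rest on the brighter probe set, since the other one gave a log2 ratio of 0.93 for Tnc and -0.84 for Fbln1. On the relative scale Fbln1, Tnfaip6 and Tlr2 were within 2-fold of the median gene, and fibulin 2 (Fbln2) passed 2-fold as higher, with a relative log2 ratio of 1.05.

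**Figure D3:**
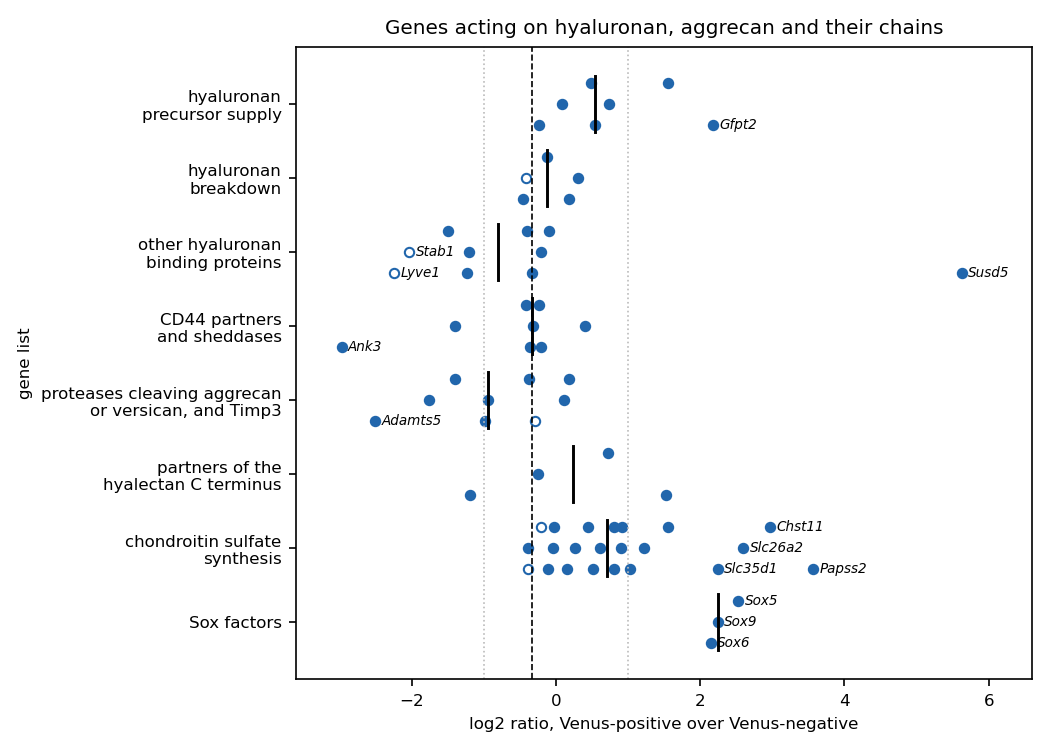
Log2 ratio (Venus-positive on top) for each measured gene of 8 lists, with open circles where 1 signal was under the floor, black bars at list medians, dotted lines at 2-fold and a dashed line at the median of all measured genes. The chondroitin sulfate list and the Sox factors lie to the right with medians of 0.71 and 2.24, the proteases to the left with a median of -0.94, and Susd5 stands alone at 5.63 among the hyaluronan-binding proteins.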

How the data were processed

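Each of 2 samples, Venus-positive and Venus-negative cells, was measured on 1 one-colour array, and groups follow the cell type in the labels. Per probe set the authors deposited 1 intensity on a linear scale, made with MAS5, per the submitters' processing notes. Its version, its scaling target and any detection calls are not used here, since no source states them. Of 45101 probe sets, 64 controls were set aside, and 34945 had 1 symbol, 932 several and 9160 none in the platform annotation. Signals were raised to the floor (the median of both arrays) and log2 ratios computed in Python 3.11.15 with numpy 2.4.6 and pandas 2.3.3. The brightest measured probe set, by mean log2 signal, stood for a gene, and 2-fold was the size counted. With 1 array per group, their number limits the precision and no test was run. Named genes were the 10 members with every probe set, at most the 4 largest past 2-fold of each list, and the 3 nearest in log2 ratio to Acan, Hapln1, Vcan and Cd44. Any other gene was named after its values were seen. Members and lists were chosen with earlier results of these data known. The procedure was tested on simulated data, with changes planted only in genes well above the floor in Venus-negative cells. That test does not cover genes dim in Venus-negative cells, Acan among them. Alternatives changed the scale, normalization, floor, pseudocount and probe sets. No genome build is named for the values, so RefSeq (GRCm38.p6) served only for neighbours and promoter sequences.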

Additional observations from a re-analysis of the deposited data

How the results depend on the processing

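Under 7 other settings and under scaling to the hybridisation controls, which was added after seeing the data, Acan and Hapln1 were at least 2-fold higher and Cd44 at least 2-fold lower every time. No paired analysis was possible because each fraction has 1 array. With a floor at the 75th percentile, 5 of the 10 genes were measured, and the log2 ratio of Acan was 4.92 and that of Cd44 -1.77, as the raised floor shortens them by construction. For Cd44 it was -2.02 after quantile normalization and -1.64 as the mean over its measured probe sets, which lets in its dim one. With a floor at the 25th percentile, Bcan was at 2.76, Ncan at -1.19, Hapln3 at -0.65 and Has3 at -1.02, so that 3 genes were at least 2-fold higher and 3 lower, and 6 probe sets lower. With no floor and log2(signal + 16), Bcan was at 1.45 and Ncan at -0.58. Values for these dim genes thus depend on the floor. The other 84 of 96 member values and counts moved by less than 0.34 in log2 ratio or by at most 1.5 times in count. Of 144 list medians 116 did so, those of the hyaluronan-binding proteins, proteases and several marker lists moved further, and none at or past 2-fold changed sign. Part of this was fixed in advance. Centring subtracts -0.33 from every log2 ratio, inside the 0.34 limit. Acan has 1 probe set, so averaging or dropping probe sets could not move its value. Low signal limits what can be said of Ncan, Bcan, Hapln3, Hapln4 and Has3.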
